A study of Drosophila melanogaster with 12 samples.

Results

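Terminal filament cells and cap cells (TFCs-CpCs), which form the anterior tip of the germline stem cell niche in the fly ovary, were compared with escort cells (ECs) from females of the same age, 1 week (1w). The comparison used 4 of the 12 RNA-seq libraries of the series, 2 of TFCs-CpCs and 2 of ECs, all from sorted ovarian cells, and covered 10173 of the 13726 genes with values, those that reached 10 counts in 2 or more of these libraries. The TFCs-CpCs came from bab1-Gal4/UASp-tau::mGFP6 females, in which bab1-Gal4 drives a Tau::GFP reporter strongly in TFCs and CpCs and more weakly in ECs, and only cells of high GFP and without propidium iodide uptake were collected. The ECs came from ptc-LexA/+ females heterozygous for y w lexAop-mCD8::GFP, in which ptc-LexA drives a membrane GFP, and GFP-positive cells without propidium iodide were collected. In both groups the collected cells are defined by the driver and the gate alone. Cell group, genotype, reporter, gate, number of cells sorted and sequencing depth changed together. Their parts in any difference below cannot be told apart. The paper gives a far smaller typical number of sorted cells for TFCs-CpCs than for ECs. Libraries from 4-week-old (4w) females of the same genotypes were used to see which differences were also found in separate samples.

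TFCs stack in front of the germarium, and CpCs lie at their base in direct contact with the germline stem cells, to which they present the BMP ligand Dpp. ECs line the region behind, wrap the developing germline cysts with long protrusions and help them to differentiate. Hedgehog, made in terminal filament and cap cells, is known to be received by ECs, where its receptor gene ptc is also a target of the pathway, and Wnt ligands act within the ECs themselves.

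The comparison called 3172 of the 10173 genes tested, which is 31.2% of them, at a difference of at least 2-fold (a log2 fold change of 1) and an adjusted p under 0.1 (quasi-likelihood test of edgeR, p adjusted by Benjamini-Hochberg, as for every adjusted p below). Of these, 1422 genes (14.0% of those tested) were higher in TFCs-CpCs and 1750 (17.2%) were higher in ECs. The 2 directions differed in kind. The genes higher in TFCs-CpCs were mostly well expressed, with 1344 of the 1422 at a mean of at least 10 cRPKM (a read count scaled by mappable transcript length and library size) in TFCs-CpCs and 15 with ECs at or under 3 counts in both libraries. Of the 1750 genes higher in ECs, 884 reached 10 cRPKM in ECs, and 720 had at most 3 counts in both TFCs-CpCs libraries. The median size of the difference on the log2 scale was 2.00 for the first set and 4.36 for the second. The cRPKM of the 2 groups did not overlap for any called gene, beside 67.6% of all genes tested. Limma on log2(cRPKM + 1), which differs from the edgeR fit in test, unit and pseudocount at once, put 32.8% of its calls higher in TFCs-CpCs, in place of 44.8%, and the median over all genes was −0.43 there and −0.19 in the edgeR fit.

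The number of EC-high genes depended on both EC libraries. The TFCs-CpCs libraries held 44642511 and 52487930 counts and the EC libraries 12078227 and 15042779, yet the shallowest of the 4, ECs replicate 1, listed 10668 genes at 1 cRPKM or more, beside 8553 in ECs replicate 2 and 7771 and 7851 in TFCs-CpCs. Replicate 1 was above replicate 2 in 662 of the 866 EC-high genes under 10 cRPKM and in 561 of the 884 at 10 cRPKM or more. Without ECs replicate 1 the comparison called 1944 genes, 1227 higher in TFCs-CpCs and 717 higher in ECs, and without ECs replicate 2 it called 2163, of which 785 were higher in ECs. Thinning the TFCs-CpCs counts to the depth of the shallowest EC library left 8545 and 8707 genes above 3 counts in TFCs-CpCs, beside 12003 and 10583 in ECs. Thinning evens the depth and not the number of cells sorted. For these reasons the account below turns on genes that reach 10 cRPKM, and says where a gene does not. A lower level of a transcript in these bulk libraries may come from fewer cells of a type or from less RNA per cell, which cannot be told apart. More than 5% of exon bases overlap another gene in CG15721 (24.8%), pyx (14.9%), Cals (14.4%), grk (12.3%), Tdc1 (10.8%), wit (9.5%), Pax (7.9%), Mmp1 (5.9%), Mmp2 (5.7%) and Act57B (5.6%) among the genes named here, and the counts of these genes are uncertain to that extent. The plot of level against difference shows both tails.

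**Figure D1:**
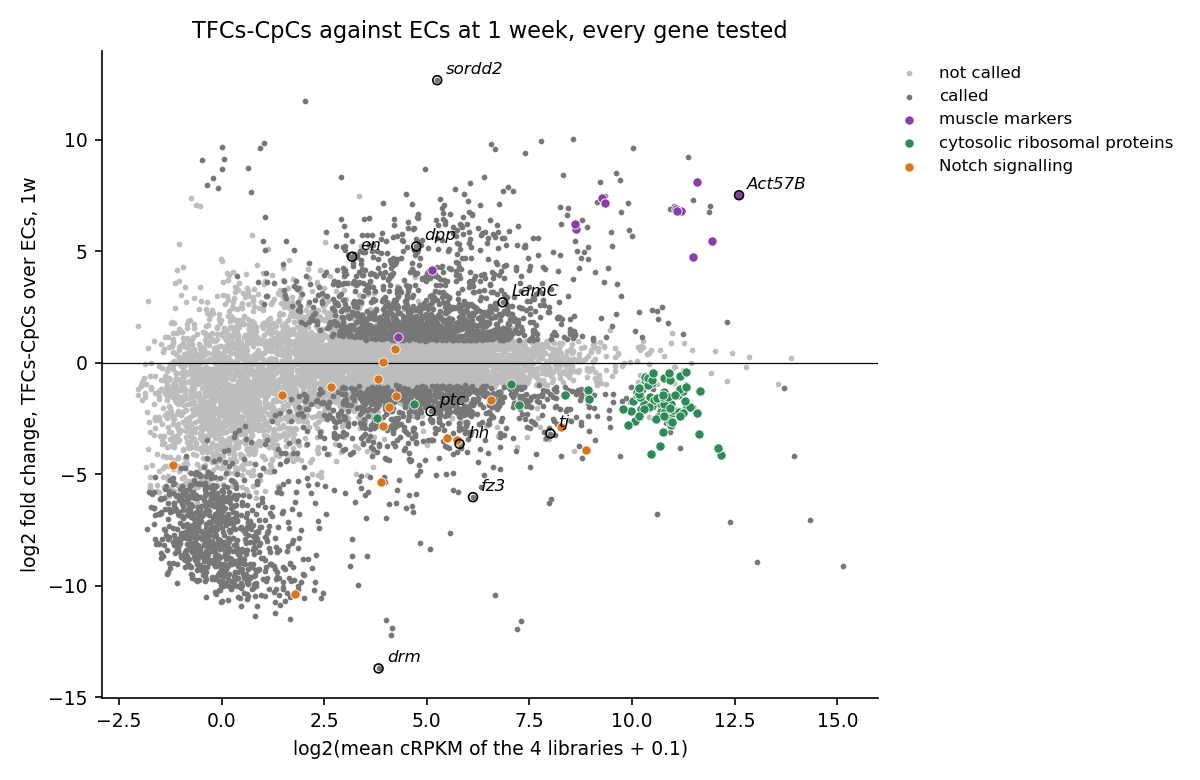
Each point is 1 of the 10173 genes tested, with log2 of the mean cRPKM of the 4 libraries plus 0.1 on the x axis and the fitted log2 fold change of TFCs-CpCs over ECs at 1w on the y axis; dark points are the 3172 called genes. The 13 muscle markers lie above 0, most of them high on the right, with sls the lowest at 1.14. The ribosomal protein genes lie below 0 at high levels, and the dense cloud at the lower left holds EC-high genes of low level.

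Most of the genes that define the 2 cell groups followed their labels, and hedgehog did not. LamC (FBgn0010397, 2R:14570810-14575771, minus strand, dm6), which encodes the A-type lamin enriched in niche cells, was at 164 and 221 cRPKM in TFCs-CpCs and at 39.5 and 36.2 in ECs. The groups were well apart, with a log2 fold change of 2.71 ± 0.26 (SE; adjusted p = 0.00146). The homeobox gene en (FBgn0000577, 2R:11524006-11528210, minus strand), a classical marker of TFCs and CpCs, was at 13.9 and 20.3 cRPKM in TFCs-CpCs and at 0.79 and 0.83 in ECs, a log2 fold change of 4.76 ± 0.54 (adjusted p = 0.00244). Its neighbour and paralogue inv was at 17.6 and 16.4 cRPKM in TFCs-CpCs and at 1.99 and 0.27 in ECs. Both EC values of inv were low but differed from each other, so that its log2 fold change of 4.34 became 6.22 without ECs replicate 1 and 3.46 without replicate 2. The BTB transcription factor genes bab1 and bab2 act in terminal filament formation, and bab1 also supplies the driver. While bab2 was higher in TFCs-CpCs (40.3 and 42.2 cRPKM beside 16.4 and 19.4; log2 fold change 1.56 ± 0.27, adjusted p = 0.0106), bab1 was at 7.69 and 9.19 beside 6.82 and 4.99 and did not pass the test (log2 fold change 0.89, adjusted p = 0.133).

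On the EC side, ptc (FBgn0003892, 2R:8649649-8665223, plus strand), the Hedgehog receptor and the source of the EC driver, was at 10.9 and 8.71 cRPKM in TFCs-CpCs and at 74.1 and 42.4 in ECs, a log2 fold change of −2.18 ± 0.34 (adjusted p = 0.00726). The Maf factor gene tj, which somatic gonad cells need to associate with germ cells, was at 36.8 and 45.1 cRPKM in TFCs-CpCs and at 473 and 476 in ECs (log2 fold change −3.17 ± 0.26, adjusted p = 0.000811). Wnt4, a ligand made by ECs, was at 76.9 and 79.0 beside 354 and 235 (log2 fold change −1.54 ± 0.26, adjusted p = 0.0103), but it did not keep this direction at 4w, where it was at 307 and 1390 beside 371 and 257 (1.52, adjusted p = 0.272). At 1w all 3 were higher in both EC libraries than in either TFCs-CpCs library. The zinc finger gene zfh1, in contrast, was at 48.8 and 53.0 cRPKM in TFCs-CpCs and at 53.9 and 34.4 in ECs, where the groups overlapped.

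The ligand gene hh (FBgn0004644, 3R:23128169-23141906, minus strand) is a textbook product of terminal filament and cap cells. In these libraries it was at 5.35 and 7.65 cRPKM in TFCs-CpCs and at 118 and 91.5 in ECs, the opposite of its place as a niche marker. Both EC libraries were more than 10-fold above both TFCs-CpCs libraries, with a log2 fold change of −3.64 ± 0.32 (adjusted p = 0.00113). The 4w libraries did not repeat this: hh was at 25.3 and 106 cRPKM in TFCs-CpCs and at 89.7 and 83.0 in ECs (log2 fold change −0.31, adjusted p = 0.831), and the change of the difference between ages was −3.26 ± 0.75 (adjusted p = 0.0658). The 1w libraries of TFCs-CpCs are therefore called so here by their label and by LamC, en and inv, and not by hh.

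**Figure D2:**
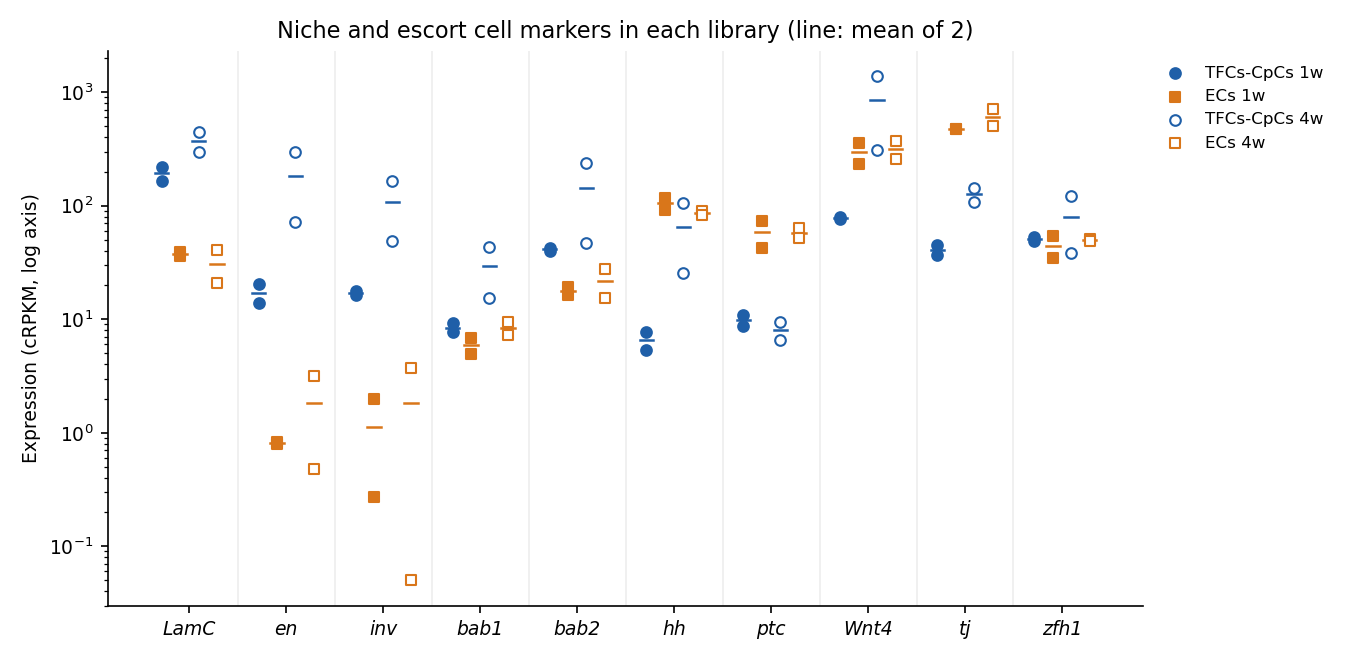
Expression in cRPKM on a log axis of niche and EC markers in each library, with circles for TFCs-CpCs and squares for ECs, filled at 1w and open at 4w; the line is the mean of 2 libraries, and values under 0.05 are drawn at 0.05. At 1w LamC, en and inv lie higher in TFCs-CpCs, whereas hh, ptc, Wnt4 and tj lie higher in ECs.

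Transcripts of muscle were abundant in the young TFCs-CpCs. All 13 muscle markers measured were higher in TFCs-CpCs, with a median log2 fold change of 6.80, and their summed level was 49801 and 48048 cRPKM in TFCs-CpCs and 1225 and 445 in ECs. The muscle actin Act57B was at 11798 and 12982 cRPKM in TFCs-CpCs and at 139 and 39.4 in ECs (log2 fold change 7.52 ± 0.70, adjusted p = 0.00126). The myosin heavy chain gene Mhc was at 1138 and 1315 beside 16.4 and 2.79 (7.41 ± 0.90, adjusted p = 0.00322). The tropomyosin gene Tm2 was at 6318 and 5831 beside 48.6 and 10.6 (8.09 ± 0.82, adjusted p = 0.00166). The muscle regulator Mef2, which is not among the 13, was at 84.3 and 96.2 beside 4.83 and 1.98 (5.12 ± 0.47, adjusted p = 0.00119). ECs replicate 1 held more of these transcripts than replicate 2, and without it the log2 fold changes of Act57B and Mhc were 8.55 and 9.03, beside 6.84 and 6.58 without replicate 2; those of Tm2 and Mef2 were 9.42 and 5.76, beside 7.33 and 4.58. The smallest difference among the 13 was that of sls, a titin-like gene, at 23.6 and 25.2 cRPKM beside 19.4 and 9.55 (1.14 ± 0.34, adjusted p = 0.0575), whose call was lost without ECs replicate 2 (0.69, adjusted p = 0.132). At 4w the summed level was 1452 and 1525 cRPKM in TFCs-CpCs and 136 and 148 in ECs, and 10 of the 13 genes were still called. The ovary holds muscle in its sheaths; the part of these transcripts in the other results was not tested.

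Markers of other cell types moved less. None of the 8 germline genes measured was called, with sums of 72.6 and 237 cRPKM in TFCs-CpCs and 99.1 and 101 in ECs. The follicle cell list, mostly yolk and eggshell protein genes, summed to 14886 and 4248 cRPKM in TFCs-CpCs and to 17306 and 14493 in ECs. Of its 14 genes, 3 were higher in ECs (21.4%, beside 17.2% of all genes), 2 of them at 10 cRPKM or more. These were the homeobox gene mirr (−1.32, adjusted p = 0.024) and the vitelline membrane gene Vm26Aa (−1.84, adjusted p = 0.0542), whose call was lost without ECs replicate 1 (−1.80, adjusted p = 0.12) and whose difference was −2.89 without TFCs-CpCs replicate 1 and −1.12 without replicate 2. The hemocyte sum was higher in TFCs-CpCs (378 and 358 beside 108 and 114) through Pxn, which encodes a matrix peroxidase, while the defining hemocyte gene Hml was at 0 in both TFCs-CpCs libraries and at 0.68 and 0.19 in ECs (a fitted difference of −9.81 without TFCs-CpCs replicate 1 and −6.14 without replicate 2). The fat body list summed to 88.5 and 121 cRPKM beside 44.9 and 73.9, and the neuronal list to 15.1 and 12.6 beside 55.8 and 20.6.

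**Figure D3:**
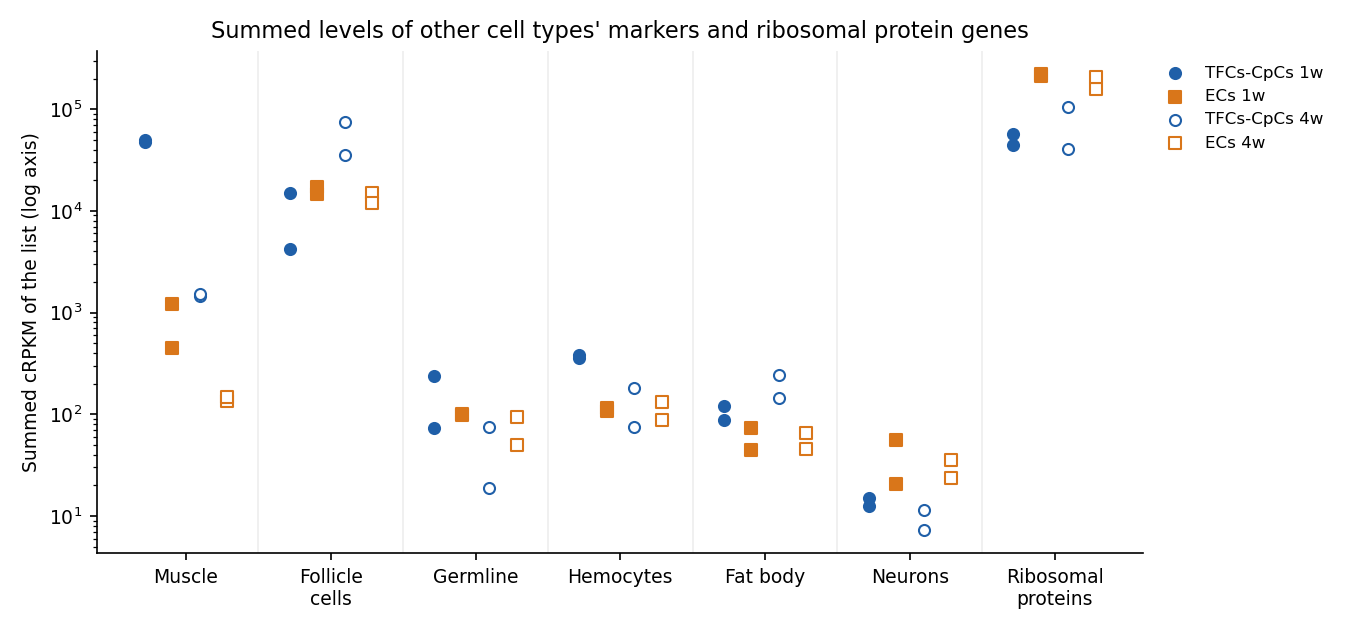
Summed cRPKM of each list of cell type markers and of the ribosomal protein genes on a log axis, 1 point per library, with circles for TFCs-CpCs and squares for ECs, filled at 1w and open at 4w. The muscle sum of the 2 young TFCs-CpCs libraries (49801 and 48048) stands above all other libraries, and the ribosomal protein sum is lower in TFCs-CpCs than in ECs.

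Genes of BMP signalling were called in both directions. Of 22 genes tested in the list, 7 were higher in TFCs-CpCs and 5 in ECs (54.5% called, beside 31.2% of all genes, median 0.79). The ligand gene dpp (FBgn0000490), whose product maintains germline stem cells, was at 59.4 and 43.7 cRPKM in TFCs-CpCs and at 2.95 and 0.74 in ECs. Its log2 fold change was 5.22 ± 0.67 (adjusted p = 0.00375), with 6.37 and 4.49 without ECs replicate 1 and replicate 2, and it was called at 4w too (4.31, adjusted p = 0.0889). The second BMP ligand gene, gbb, was at 285 and 213 cRPKM beside 55.3 and 58.8 (2.49 ± 0.28, adjusted p = 0.00249). The glypican gene dally, whose product holds Dpp at the cap cell surface, was at 63.1 and 70.0 beside 22.9 and 29.5 (1.70 ± 0.28, adjusted p = 0.00973). The secreted BMP-binding protein gene sog was at 94.6 and 109 beside 16.5 and 10.1 (3.32 ± 0.30, adjusted p = 0.0012), and it too was called at 4w.

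The type I receptor gene tkv, in turn, was at 28.3 and 25.8 cRPKM in TFCs-CpCs and at 133 and 141 in ECs, a log2 fold change of −1.97 ± 0.25 (adjusted p = 0.00374) that was also called at 4w (−2.59, adjusted p = 0.0428). The type II receptor gene wit was at 0.96 and 1.60 beside 12.3 and 12.1 (−2.89 ± 0.51, adjusted p = 0.0121). The nuclear cofactor gene shn was at 7.0 and 6.70 beside 29.6 and 25.7 (−1.64 ± 0.26, adjusted p = 0.00764). The activin-type ligand gene Actbeta was EC-high at a low level (0.01 and 0.03 beside 1.44 and 1.5; −5.85 ± 1.76, adjusted p = 0.0593), with −5.14 and no call without TFCs-CpCs replicate 1 (adjusted p = 0.107) and −7.13 without replicate 2, and its adjusted p was 0.142 with the replicate block. The receptor genes put, sax and babo and the ligand genes scw and myo were not called. For tkv, wit and shn the EC libraries lay close together and above both TFCs-CpCs libraries. Dad, which encodes the inhibitory Smad and is a target of the pathway, was higher in TFCs-CpCs by a small margin (70.5 and 48.4 cRPKM beside 42.8 and 28.7; log2 fold change 1.12, adjusted p = 0.0529), a call that was lost without TFCs-CpCs replicate 1 (0.81, adjusted p = 0.196) and without ECs replicate 2 (0.84, adjusted p = 0.189).

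In the Hedgehog pathway 7 of 18 genes were higher in TFCs-CpCs and 4 in ECs (61.1% called). The 4 EC-high genes were hh and ptc, described above, the transcription factor gene ci, and shf, which encodes a secreted factor needed for Hedgehog spread. The transducer ci was at 23.09 and 26.2 cRPKM in TFCs-CpCs and at 171 and 156 in ECs (log2 fold change −2.36 ± 0.23, adjusted p = 0.00156), with a near equal difference at 4w (−2.21, adjusted p = 0.0581). Levels of shf were 116 and 111 beside 366 and 322 (−1.23 ± 0.23, adjusted p = 0.0138). Higher in TFCs-CpCs were the co-receptor gene boi (51.6 and 56.8 cRPKM beside 17.2 and 22.5; 1.81 ± 0.31, adjusted p = 0.0106) and the heparan sulphate polymerase gene ttv (34.0 and 33.5 beside 12.6 and 11.2; 1.88 ± 0.28, adjusted p = 0.00634).

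Wnt ligand genes differed in level in both directions. Of 22 genes tested in the whole list of Wnt ligands and pathway genes, 5 were higher in TFCs-CpCs and 6 in ECs (median −0.05). The genes wg and WntD of the list had no values and are not covered. Wnt6 was at 34.4 and 29.1 cRPKM in TFCs-CpCs and at 10.9 and 3.06 in ECs, with a log2 fold change of 2.60 ± 0.59 (adjusted p = 0.0282) that was 3.63 without ECs replicate 1 and 1.91 without replicate 2. The difference was larger in value at 4w (4.72, adjusted p = 0.0283), where TFCs-CpCs held 117 and 474 cRPKM. Wnt2, in contrast, was at 5.48 and 11.9 cRPKM in TFCs-CpCs and at 119.9 and 119 in ECs (−3.43 ± 0.42, adjusted p = 0.00334), and it was EC-high at 4w as well (−2.78, adjusted p = 0.0502). Wnt2 and Wnt4 were thus both EC-high at 1w, and of these only Wnt2 was called at 4w. Within young TFCs-CpCs Wnt4, at 76.9 and 79.0 cRPKM, was above Wnt6.

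Wnt receptor genes were called in both directions. The gene fz3, a known target of canonical Wnt signalling, was at 1.75 and 1.54 cRPKM in TFCs-CpCs and at 119 and 156 in ECs, a log2 fold change of −6.03 ± 0.37 (adjusted p = 0.000411), and −6.73 at 4w. Levels of fz, the receptor shared with planar polarity, were 1.11 and 3.49 beside 69.3 and 50.5 (−4.34 ± 0.59, adjusted p = 0.00447), with −5.24 without TFCs-CpCs replicate 2 and −3.73 without replicate 1. Notum, which encodes a secreted feedback inhibitor of Wnt, was at 0.38 and 0.17 beside 26.8 and 17.0 (−5.94 ± 0.63, adjusted p = 0.00195), with −6.64 without TFCs-CpCs replicate 1 and −5.33 without replicate 2. In all 3 both TFCs-CpCs libraries were under 4 cRPKM and both EC libraries over 17. The receptor gene fz2 went the other way, with 97.5 and 108 cRPKM in TFCs-CpCs and 49.6 and 49.2 in ECs (1.42 ± 0.23, adjusted p = 0.00905). Expression of dsh, which encodes the cytoplasmic transducer of both branches, was 37.2 and 33.3 beside 7.44 and 2.57 (3.22 ± 0.53, adjusted p = 0.00944), with 4.03 without ECs replicate 1 and 2.61 without replicate 2.

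**Figure D4:**
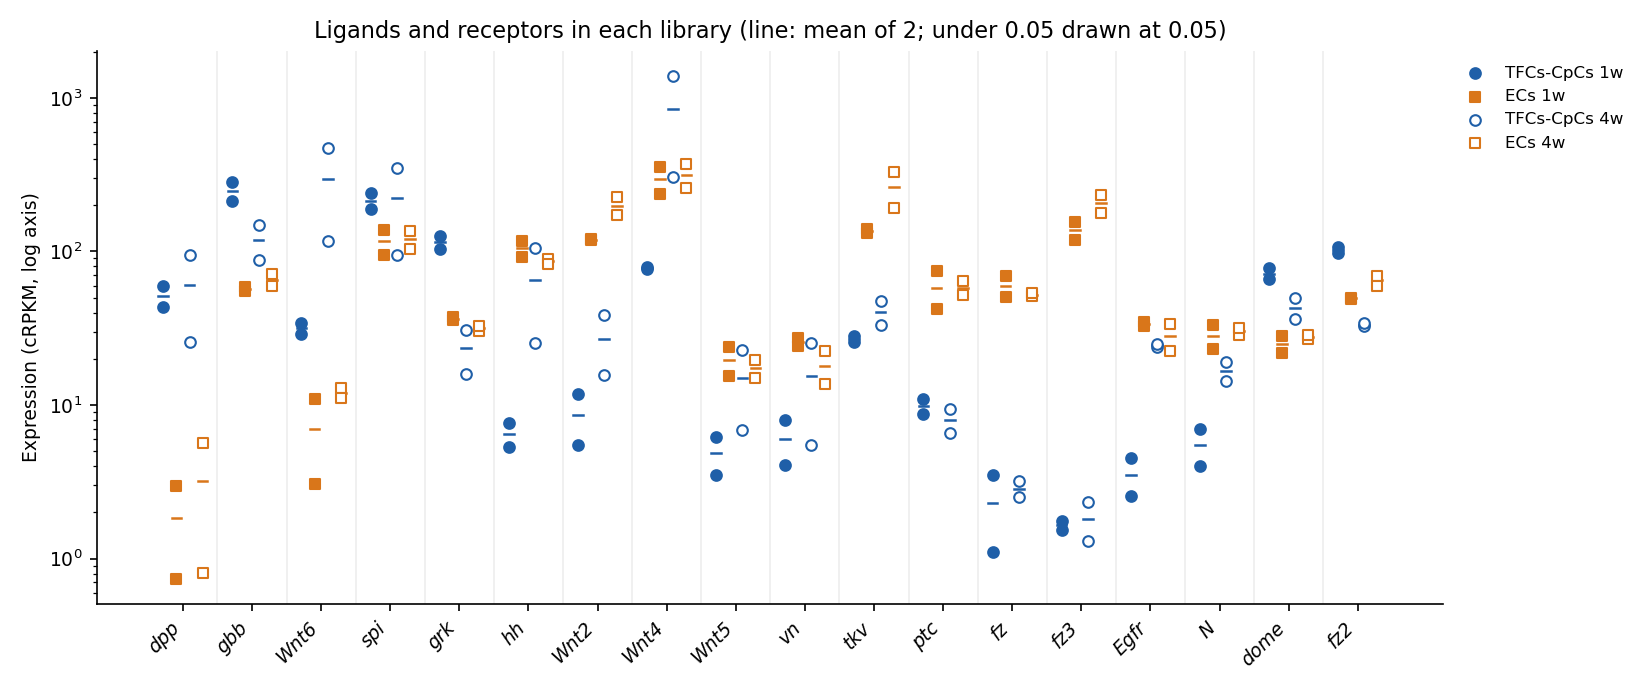
Expression in cRPKM on a log axis of ligand and receptor genes in each library, with circles for TFCs-CpCs and squares for ECs, filled at 1w and open at 4w; the line is the mean of 2 libraries. At 1w dpp, gbb and Wnt6 lie higher in TFCs-CpCs, and hh, Wnt2, Wnt4, tkv, ptc, fz, fz3, Egfr and N lie higher in ECs.

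Genes of the EGF receptor pathway were also called in both directions. Of 15 genes tested, 4 were higher in TFCs-CpCs and 3 in ECs (46.7% called, median 0.11). Egfr itself was at 2.54 and 4.51 cRPKM in TFCs-CpCs and at 32.8 and 34.6 in ECs (log2 fold change −2.90 ± 0.37, adjusted p = 0.00375). The feedback inhibitor and target gene kek1 was at 4.42 and 5.70 beside 177 and 114 (−4.47 ± 0.32, adjusted p = 0.000592). Receptor and membrane inhibitor were thus both low in TFCs-CpCs. The secreted antagonist gene aos was the reverse, with 93.5 and 110.3 cRPKM in TFCs-CpCs and 4.03 and 7.70 in ECs (4.46 ± 0.43, adjusted p = 0.00149), and the ligand gene grk was at 126 and 103 beside 35.7 and 37.2 (2.02 ± 0.28, adjusted p = 0.00511). The ligand gene spi was at 239 and 189 cRPKM beside 94.2 and 138 (1.24, adjusted p = 0.0398), a call that was lost without ECs replicate 1 (0.89, adjusted p = 0.112) or without TFCs-CpCs replicate 1 (1.04, adjusted p = 0.122). Of 11 JAK-STAT genes 3 were called, 27.3% beside 31.2% of all genes. The receptor gene dome (65.7 and 77.5 cRPKM beside 28.2 and 22.0; 1.89 ± 0.25, adjusted p = 0.00402) and the kinase gene hop (38.8 and 42.1 beside 13.5 and 6.83; 2.38 ± 0.36, adjusted p = 0.00673) were higher in TFCs-CpCs.

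Notch genes were higher in ECs wherever they were called. Of the 16 tested, 10 (62.5%) were EC-high, beside 17.2% of all genes, and none was higher in TFCs-CpCs. Dl, Psn and nct of the list had no values and are not covered. The median was −2.42, beside −0.19 over all genes. The receptor gene N was at 3.98 and 6.98 cRPKM in TFCs-CpCs and at 33.3 and 23.2 in ECs (log2 fold change −2.0 ± 0.35, adjusted p = 0.0115). The protease gene kuz, whose product cleaves the receptor, was at 5.95 and 6.58 beside 101 and 66.8 (−3.37 ± 0.29, adjusted p = 0.001), and fng, which encodes a glycosyltransferase that tunes ligand choice, was at 38.1 and 37.0 beside 166 and 139 (−1.65 ± 0.25, adjusted p = 0.00677). These genes of the receiving cell lay lower in both TFCs-CpCs libraries than in either EC library. Target genes of the E(spl) complex did so too. The highest, E(spl)m3-HLH, was at 38.2 and 55.8 cRPKM in TFCs-CpCs and at 761 and 1029 in ECs (−3.90 ± 0.34, adjusted p = 0.00107), and it was called at 4w (−2.56, adjusted p = 0.0281). E(spl)mbeta-HLH was at 33.5 and 84.1 beside 575 and 537 (−2.88 ± 0.44, adjusted p = 0.00722), with −3.54 without TFCs-CpCs replicate 2 and −2.37 without replicate 1. For E(spl)mdelta-HLH, which had 0 counts in both TFCs-CpCs libraries and was at 6.27 and 7.17 cRPKM in ECs, the mean level in ECs was at least 104-fold higher.

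Several transcription factor genes were found in 1 group almost alone. In the list of transcription factors of the somatic gonad, 8 of 41 genes were higher in TFCs-CpCs and 16 in ECs (58.5% called, median −1.68). At 10 cRPKM or more in the higher group these were 8 and 9. Of the 16, 6 had at most 3 counts in both TFCs-CpCs libraries. The LIM homeobox gene Lmx1a was at 33.7 and 28.3 cRPKM in TFCs-CpCs and at 2.65 and 0.13 in ECs (4.92 ± 1.14, adjusted p = 0.0301), with 8.16 without ECs replicate 1 and 3.92 without replicate 2, and it was again TFCs-CpCs-high at 4w (6.59, adjusted p = 0.021). The zinc finger gene drm, of the odd-skipped family, had 0 counts in both TFCs-CpCs libraries and was at 17.3 and 39.0 cRPKM in ECs, at least 1032-fold higher. Its relatives odd and bowl followed: odd had 0 counts in TFCs-CpCs and 8.17 and 4.12 cRPKM in ECs, at least 226-fold higher, and bowl was at 11.01 and 13.9 beside 62.1 and 65.5 (−2.0 ± 0.28, adjusted p = 0.00517). The sine oculis family gene Six4 was at 13.6 and 22.2 cRPKM in TFCs-CpCs and at 193 and 245 in ECs (−3.26 ± 0.35, adjusted p = 0.00201), and the steroid-induced factor gene Eip93F at 3.04 and 4.58 beside 79.6 and 33.4 (−3.51 ± 0.45, adjusted p = 0.00375), with −2.89 without ECs replicate 1. The Hox gene abd-A and its cofactor gene exd were higher in TFCs-CpCs. Levels of abd-A were 32.9 and 25.4 cRPKM beside 10.6 and 2.51 (2.56 ± 0.64, adjusted p = 0.0369), with 3.79 without ECs replicate 1 and 1.82 without replicate 2, and levels of exd were 139.7 and 127 beside 58.6 and 72.4 (1.39 ± 0.27, adjusted p = 0.0159). The 5 Hox genes called EC-high were all under 10 cRPKM in ECs with TFCs-CpCs at or under 3 counts.

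More genes of integrin adhesion were higher in TFCs-CpCs than in ECs. Of 16 tested, 9 were higher in TFCs-CpCs, all at 10 cRPKM or more, and 2 in ECs, both under 10 cRPKM. The share called was 68.8% and the median was 1.23. The tensin gene by was at 353 and 298 cRPKM in TFCs-CpCs and at 11.1 and 11.7 in ECs (5.2 ± 0.29, adjusted p = 0.000411), and it was called at 4w (3.96, adjusted p = 0.0342). Vinculin (Vinc), which links integrins to actin, was at 135 and 176 beside 15.5 and 9.91 (3.99 ± 0.31, adjusted p = 0.000811), the alpha-integrin gene if at 54.1 and 59.98 beside 7.34 and 4.24 (3.68 ± 0.33, adjusted p = 0.00114) and the adaptor gene Pax at 384 and 384 beside 49.0 and 91.0 (2.80 ± 0.38, adjusted p = 0.00466). These genes also act at muscle attachment sites, and the muscle sums given above moved with them; the part of muscle in these values was not tested. At 4w, where the muscle sum of TFCs-CpCs was 1452 and 1525 cRPKM, by, Vinc and the kindlin gene Fit1 were the 3 genes of the list called.

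Cell-cell adhesion and matrix genes were mixed. E-cadherin (shg), which anchors germline stem cells to cap cells, was at 4.49 and 6.25 cRPKM in TFCs-CpCs and at 43.5 and 37.8 in ECs (−2.55 ± 0.29, adjusted p = 0.00249). Of 14 cadherin genes tested, 1 was higher in TFCs-CpCs and 5 in ECs (42.9% called, beside 31.2% of all genes). Among the 5, 1 reached 10 cRPKM. The calsyntenin gene Cals was the only cadherin higher in TFCs-CpCs (159 and 150.2 beside 53.6 and 38.9, log2 fold change 2.12 ± 0.25, adjusted p = 0.00299). The innexin gene shakB was at 49.4 and 58.4 cRPKM beside 0.82 and 0.54 (6.69 ± 0.38, adjusted p = 0.000411). Of 13 basement membrane genes 4 were higher in TFCs-CpCs and none in ECs, which is 30.8% beside 31.2% of all genes. The largest difference among them was that of papilin (Ppn), at 51.6 and 100.2 cRPKM beside 2.06 and 0.66 (6.20 ± 0.64, adjusted p = 0.00185), with 7.08 without ECs replicate 1 and 5.56 without replicate 2, and the laminin gene LanB2 was at 86.9 and 97.7 beside 45.5 and 34.1 (1.59 ± 0.24, adjusted p = 0.00703). The matrix metalloprotease genes Mmp1 and Mmp2 took opposite sides. Mmp1 was at 5.01 and 3.65 cRPKM in TFCs-CpCs and at 105 and 85.5 in ECs (−4.08 ± 0.33, adjusted p = 0.000811), and Mmp2 at 16.4 and 18.4 beside 4.95 and 1.87 (2.75 ± 0.51, adjusted p = 0.0144), with 3.47 without ECs replicate 1 and 2.18 without replicate 2. Of 22 septate junction genes, 6 were higher in TFCs-CpCs and 1 in ECs, which is 31.8% and near the share of all genes; among the former, cora was at 183 and 189.6 beside 55.2 and 41.6 (2.32 ± 0.25, adjusted p = 0.00201) and dlg1 at 90.1 and 101 beside 30.7 and 18.8 (2.33 ± 0.29, adjusted p = 0.0035).

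Guidance cue genes that neurons use for axon pathfinding were also among the differences. Of 21 tested (47.6% called), 2 were higher in TFCs-CpCs and 8 in ECs, 4 of these at 10 cRPKM or more. Netrin-B (NetB), a secreted cue, was at 191 and 172 cRPKM in TFCs-CpCs and at 3.57 and 2.02 in ECs (6.41 ± 0.38, adjusted p = 0.000411). The semaphorin gene Sema1b was at 150.2 and 155 beside 36.7 and 31.5 (2.53 ± 0.23, adjusted p = 0.00123). Its relative Sema1a went the other way, at 1.69 and 3.32 beside 42.5 and 29.4 (−3.47 ± 0.42, adjusted p = 0.00318), and the Slit ligand gene sli was at 1.08 and 0.57 beside 13.8 and 13.4 (−3.67 ± 0.46, adjusted p = 0.00353). Both EC-high cues were called at 4w as well (−4.08 and −3.05). In the dpr and DIP family of neuronal recognition molecules, 1 of 26 genes was higher in TFCs-CpCs and 7 in ECs, which is 30.8% and near the share of all genes. Of the 7, only dpr17 reached 10 cRPKM, at 0.09 and 0.02 beside 21.1 and 14.9 (−7.92 ± 0.84, adjusted p = 0.00201), with −9.22 without TFCs-CpCs replicate 1 and −7.08 without replicate 2.

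Ion channel and transmitter receptor genes were called more often than all genes, at 54.2% beside 31.2%. Their median was −0.38, beside −0.19 over all genes. Of 48 channel and transmitter receptor genes tested 18 were higher in TFCs-CpCs, 14 of them at 10 cRPKM or more, and 8 in ECs, where 1 reached 10 cRPKM. The hyperpolarization-activated channel gene Ih was at 225 and 189 cRPKM in TFCs-CpCs and at 5.09 and 2.44 in ECs (6.17 ± 0.44, adjusted p = 0.000595). The potassium channel gene Shal was at 34.2 and 23.7 beside 0.91 and 0.45 (5.81 ± 0.55, adjusted p = 0.00134), and it was called at 4w too (4.94, adjusted p = 0.0259). The TRP channel gene pyx was at 53.7 and 46.6 beside 3.28 and 1.31 (4.85 ± 0.49, adjusted p = 0.00168; 5.52 without ECs replicate 1) and the L-type calcium channel gene Ca-alpha1D at 16.7 and 16.2 beside 2.09 and 1.47 (3.59 ± 0.32, adjusted p = 0.00114). Among the 8 EC-high genes, the 1 that reached 10 cRPKM was the chloride channel gene Best1. It was at 13.7 and 9.16 beside 46.1 and 76.9 (−2.07 ± 0.42, adjusted p = 0.0191). Of 6 aquaporin and ammonium transporter genes tested, 4 were higher in TFCs-CpCs and 1 in ECs (83.3% called, beside 31.2% of all genes). The aquaporin gene Prip was far above the ion channels named here in level. It was at 8245 and 6970 cRPKM in TFCs-CpCs and at 99.1 and 50.9 in ECs (7.06 ± 0.46, adjusted p = 0.000468). Excitable cells such as muscle use many of these channels, and their part in these values was not tested.

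The 10 genes with the largest fitted differences in each direction were set by a rule on level and overlap. In TFCs-CpCs the first was sordd2, with 74.3 and 78.0 cRPKM and 0 counts in both EC libraries, at least 111-fold higher in TFCs-CpCs. It was also present at 4w, at 72.8 and 83.4 cRPKM in TFCs-CpCs and at 0 and 0.18 in ECs, while ECs of another genotype described below held it. Next came Tdc1, which encodes a tyrosine decarboxylase of amine synthesis, at 719 and 788 cRPKM beside 1.85 and 0.12 (10.03 ± 1.08, adjusted p = 0.00202), with 12.86 without ECs replicate 1 and 9.03 without replicate 2. The BTB protein gene Ktl was at 412 and 465 beside 0.53 and 0.61 (9.94 ± 0.36, adjusted p = 0.00038). The muscle actin Act87E was at 1324 and 1781 beside 7.79 and 3.28 (8.53 ± 0.52, adjusted p = 0.000411; 9.13 without ECs replicate 1). The other 6 were genes without a name (CG17032, CG5023, CG8888, CG6282, CG5612 and CG31823), with log2 fold changes from 8.69 to 9.83, of which CG5612 was the most abundant, at 6182 and 4275 cRPKM beside 12.5 and 9.99. Except for CG5612 these values moved by over 1.5 times without an EC library. Without ECs replicate 1 CG17032 was at 16.34, CG6282 at 11.92, CG5023 at 10.49 and CG8888 at 10.21. Without replicate 2 CG17032 was at 8.71, CG6282 at 8.44, CG5023 at 8.98 and CG31823 at 9.31. Among called genes of the highest level in TFCs-CpCs were Act57B, Prip, the myophilin-related gene Mp20 (8160 and 7076 cRPKM beside 328 and 124; 5.47, and 6.19 without ECs replicate 1) and the chaperone gene Hsc70-4 (7636 and 7278 beside 1916 and 3418; 1.83 ± 0.39, adjusted p = 0.0227). In each direction 1 gene that met the rule had no matched name and is not reported.

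On the EC side, drm had the largest difference, and 2 cytochrome P450 genes were among the 10: Cyp6a16 was at 28.8 and 40.9 cRPKM in ECs and Cyp4p2 at 35.1 and 28.6, with at most 3 counts in each TFCs-CpCs library, at least 1374-fold and 885-fold higher in ECs. The chaperone gene Hsp60C, a relative of the mitochondrial chaperonin, was at 12.8 and 8.99 cRPKM in ECs, at least 366-fold higher. A further 3 genes of this set behaved otherwise at 4w. CG42822 had 0 counts in the young TFCs-CpCs and was at 27.7 and 42.6 cRPKM in young ECs, at least 299-fold higher, yet was at 24.0 and 11.02 cRPKM in TFCs-CpCs at 4w beside 7.58 and 5.37 in ECs. CG42821 was at 0.22 and 0 beside 214 and 193 at 1w and at 49.6 and 29.5 beside 12.2 and 58.9 at 4w. CG15721, of which 24.8% of exon bases overlap another gene so that its counts are uncertain, was at 0.10 and 0.02 beside 108 and 478 at 1w. At 4w it was at 372.8 and 2.80 beside 5.44 and 149.6, where the groups overlapped (log2 fold change 1.44, adjusted p = 0.722). The immune peptide gene BomS3 was at 0 counts in TFCs-CpCs and at 36.5 and 3.43 cRPKM in ECs. The mean level in ECs was at least 80.8-fold higher, but with a wide gap between the EC libraries. With 1 library left out the fitted log2 fold changes of Cyp6a16 ran from −13.72 to −11.50, those of Cyp4p2 from −13.28 to −10.48, those of Hsp60C from −11.78 to −9.56, those of CG42821 from −13.84 to −9.24 and those of CG15721 from −13.37 to −10.47.

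The series also holds 2 control EC libraries of an RNAi experiment, from females with ptc-LexA, LexAop-mCD8::GFP, tub-Gal80ts and ptc-Gal4, which entered no test here. Several of the genes described above did not have the level of the young ECs there, and those given here were picked after their values were seen. The gene sordd2, at 0 counts in young ECs, was at 28.8 and 18.5 cRPKM in the control ECs. Conversely, drm was at 0.25 and 0.64, odd at 0.44 and 1.41, Cyp4p2 at 1.74 and 1.58 and Mmp1 at 9.25 and 10.3 cRPKM, each below both young EC libraries. The niche marker bab2 was at 53.5 and 44.4, above both young TFCs-CpCs libraries. The genotype of these libraries differs from that of the 1w ECs. The study also moved these females to a higher temperature upon eclosion and kept them there for longer than 1 week. Genotype, temperature and age thus differ together, and their parts in these values were not tested.

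The most abundant EC-high transcripts came from ribosomal DNA and ribosomes. The pseudogene 28SrRNA-Psi:CR45859 was at 95.0 and 103 cRPKM in TFCs-CpCs and at 79600 and 63490 in ECs (−9.12 ± 0.36, adjusted p = 0.00038), and 28SrRNA-Psi:CR40596 at 262 and 209 beside 44741 and 37136 (−7.06 ± 0.34, adjusted p = 0.000411). Such pseudogenes share reads with near-identical copies and with ribosomal RNA itself, so their values are uncertain. The same holds for 18SrRNA-Psi:CR41602, at 1377 and 1216 cRPKM beside 32070 and 28698, for 28SrRNA-Psi:CR45851, at 26.5 and 26.4 beside 19934 and 14070, and for 28SrRNA-Psi:CR45853, which had 0 counts in TFCs-CpCs and 404 and 222 cRPKM in ECs. At 4w, 28SrRNA-Psi:CR45859 was again lower in TFCs-CpCs (−8.54, adjusted p = 0.0186). Of 79 cytosolic ribosomal protein genes tested 64 were higher in ECs and none in TFCs-CpCs (81.0% called, beside 31.2% of all genes, median −1.83). Their summed level was 44753 and 56748 cRPKM in TFCs-CpCs and 211647 and 223609 in ECs. RpL38, the gene with the largest difference among them, was at 289.9 and 492 beside 9224 and 8378 (−4.13 ± 0.34, adjusted p = 0.000868). Of 71 mitochondrial ribosomal protein genes 27 were higher in ECs and none in TFCs-CpCs (38.0% called, beside 31.2% of all genes, median −0.81). Complex I of the respiratory chain had 2 of 37 higher in TFCs-CpCs and 11 in ECs (35.1% called, median −0.65). Of 34 proteasome genes 1 was called (2.94%). Counts from the mitochondrial genome were 4.66% and 4.85% of the total in TFCs-CpCs and 7.43% and 7.16% in ECs. The cytochrome oxidase gene mt:CoII, one of the most abundant EC-high genes, was at 6827 and 6874 cRPKM beside 19461 and 19790 (−1.15 ± 0.26, adjusted p = 0.0292), a call that was lost without TFCs-CpCs replicate 1 (adjusted p = 0.138) and without replicate 2 (adjusted p = 0.184), while the log2 fold change stayed between −1.28 and −1.02 with any 1 library left out. These shares moved with the cell group, as did the sort and the depth, and their part in the ribosomal protein values was not tested.

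Antioxidant and glutathione transferase genes were called about as often as all genes. Of 11 antioxidant genes 2 were higher in TFCs-CpCs and 2 in ECs (36.4%), and of 30 glutathione transferase genes 4 and 5 (30.0%), beside 31.2% of all genes. Catalase (Cat) was at 1351 and 1194 cRPKM in TFCs-CpCs and at 84.8 and 88.2 in ECs (4.25 ± 0.28, adjusted p = 0.000484). The peroxiredoxin gene Prx2 was at 2570 and 2023 beside 557 and 578 (2.39 ± 0.28, adjusted p = 0.0026), and the glutathione transferase gene GstD1 at 2931 and 2640 beside 527 and 718 (2.52 ± 0.30, adjusted p = 0.00302). The transferase gene GstS1, however, was at 341 and 326 beside 1365 and 1438 (−1.71 ± 0.24, adjusted p = 0.00559), and the mitochondrial peroxiredoxin gene Prx3 at 47.6 and 49.3 beside 229 and 139 (−1.54 ± 0.32, adjusted p = 0.0199). Tetraspanin genes, which encode membrane organizers, were higher in TFCs-CpCs in 11 of 29 cases and higher in ECs in 2. The other 16 were not called (44.8% called, median 0.15). Of the 11, Tsp42Eg was at 1081 and 789 cRPKM beside 12.2 and 22.8 (6.09 ± 0.48, adjusted p = 0.000807), and lbm at 223 and 173 beside 12.2 and 11.9 (4.41 ± 0.33, adjusted p = 0.000686).

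The same comparison in the 4w libraries, which share no sample with those of 1w, called 606 of 9908 genes (6.12%), with 371 higher in TFCs-CpCs (3.74%) and 235 in ECs (2.37%). Of the 9266 genes tested at both ages, 2795 were called at 1w and 599 at 4w. The calls shared in the same direction were 410, which is 14.7% of the 1w calls and 68.4% of the 4w calls, and 7 genes were called in opposite directions. The sign at 4w matched that at 1w for 84.8% of the genes called at 1w and for 65.1% of those not called. Genes higher in TFCs-CpCs at 1w had a median log2 fold change of 1.00 at 4w, and those higher in ECs had one of −1.22. A test of the change itself, the cell group by age interaction, called 283 of 11452 genes (2.47%), 173 with a larger TFCs-CpCs excess at 1w and 110 with a smaller one. The count of 4w calls depended on the method and on single libraries. DESeq2 called 1905 genes at 4w, and edgeR called 0 without ECs 4w replicate 1 (969 at an unadjusted p under 0.05), 106 without ECs 4w replicate 2, 2285 without TFCs-CpCs 4w replicate 1 and 921 without TFCs-CpCs 4w replicate 2.

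Of the 6 niche markers, LamC and en were called at both ages. At 4w inv (5.95, adjusted p = 0.123) and bab2 (2.82, adjusted p = 0.115) did not pass the test, nor did hh. Several signalling genes were also called at both ages. LamC (3.70 at 4w), en (6.74), dpp (4.31), Lmx1a (6.59) and Wnt6 (4.72) stayed higher in TFCs-CpCs, and ptc (−2.74), ci (−2.21), tj (−2.16), tkv (−2.59), fz (−4.08), fz3 (−6.73), sli (−3.05) and Sema1a (−4.08) stayed higher in ECs. Other differences changed with age in the interaction test. Egfr was at 24.0 and 24.9 cRPKM in TFCs-CpCs at 4w, beside 2.54 and 4.51 at 1w, and its difference from ECs was −0.08 at 4w and −2.90 at 1w (interaction −2.75 ± 0.54, adjusted p = 0.038). For shg the difference was −0.40 at 4w (interaction −2.08 ± 0.47, adjusted p = 0.0619) and for Mmp1 −0.56 (interaction −3.44 ± 0.56, adjusted p = 0.0191). At 4w TFCs-CpCs held 27.4 and 24.9 cRPKM of shg, beside 4.49 and 6.25 at 1w, and 20.7 and 30.2 of Mmp1, beside 5.01 and 3.65. The follicle cell list in TFCs-CpCs summed to 74644 and 35754 cRPKM at 4w, beside 14886 and 4248 at 1w. In ECs it summed to 14886 and 11851 at 4w. At that age 3 of its 14 genes were higher in TFCs-CpCs and 1 in ECs. Its part in the rises of Egfr, shg and Mmp1 was not tested. In the other direction, fz2 was at 32.5 and 34.1 cRPKM in TFCs-CpCs at 4w and 97.5 and 108 at 1w (interaction 2.34 ± 0.44, adjusted p = 0.0339), and Ih was at 4.09 and 2.26 at 4w beside 225 and 189 at 1w (interaction 4.49 ± 0.65, adjusted p = 0.0111). The plot of both ages gives these genes together.

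**Figure D5:**
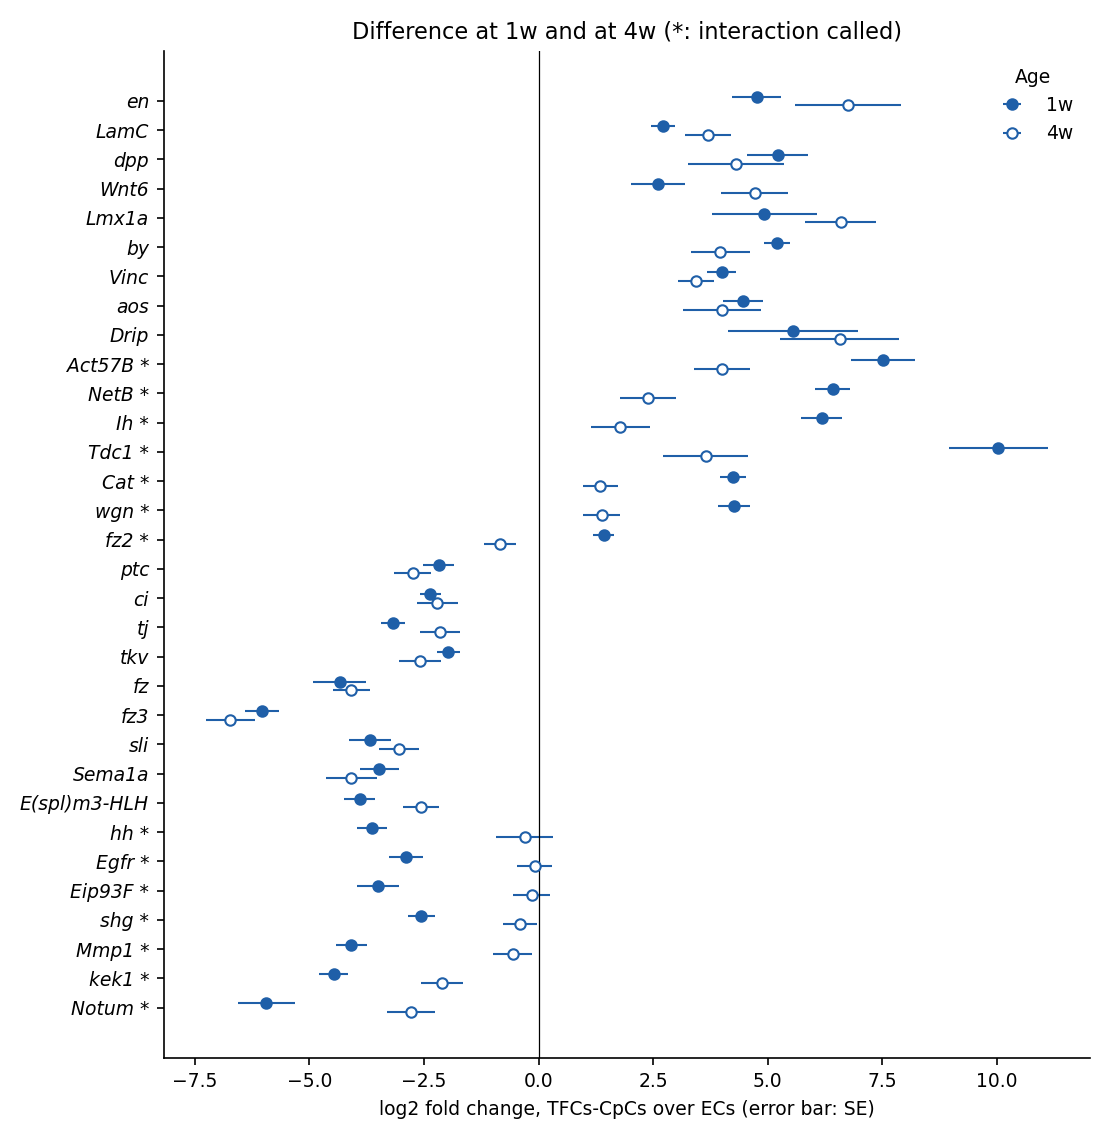
Fitted log2 fold change of TFCs-CpCs over ECs for 32 genes at 1w (filled) and at 4w (open), with bars of 1 SE; an asterisk marks genes called by the interaction test. The upper genes lie to the right of 0 and the lower ones to the left at 1w, and hh, Egfr, Eip93F, shg and Mmp1 lie close to 0 at 4w.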

How the data were processed

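RNA from sorted ovarian cells was amplified by Pico Profiling and sequenced as strand-specific paired-end libraries. The authors made 1 table per library with vast-tools for the fly genome dm6, and whether strand was used in counting is not given in the sources used here. The deposited read counts per gene are raw, and the deposited cRPKM are the authors' RPKM values corrected for mappability. Of 14489 genes listed, 763 have no values; 13506 of the other 13726 were matched to a name. No column of another sample was present (0 left out).

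Counts were tested with edgeR 4.0.16 in R 4.3.3 (quasi-likelihood, TMM normalization, a minimum of 10 counts in 2 or more libraries of the fit, cell group as the only term, or cell group, age and their interaction). Genes were called where groups differed 2-fold or more and p, adjusted by Benjamini-Hochberg over all genes tested, was under 0.1. Gene levels are given as cRPKM and differences as fitted log2 fold changes, and the fitted value was higher than the log2 ratio of mean cRPKM by a median of 0.37 over 7558 genes, a difference of scale. Where a group had at most 3 counts in each library, the fold is a lower bound against 3 counts per library. It uses the mean of the higher group, so that a single library of that group can lie below it. The bound takes account of read counts only, and not of the number of cells sorted. DESeq2 1.42.0, limma 3.58.1, other filters, thinned counts and leaving out each library were alternatives. Tables and plots were made with Python 3.11.15 and matplotlib 3.10.9, and the fits were tested on simulated counts.

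The 2 replicates of a group are biological, with totals from 12078227 to 52487930 counts at 1w, and log2 levels of replicates correlated at 0.929 (TFCs-CpCs) and 0.911 (ECs) across genes. Named are the 4 markers LamC, en, hh and ptc, the 10 largest differences in each direction (at least 10 cRPKM and 10 counts in each library of the higher group, no overlap), the 5 called genes of highest level in each direction, and list members that were called, define their list or go against it. The comparison and the gene lists were chosen with earlier results of these data known. The columns hold no comparisons by the authors. Sequences were not used here.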

Additional observations from a re-analysis of the deposited data

Results flagged for a closer look

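The difference between TFCs-CpCs and ECs changed with age in 38 of the 129 named genes (29.5%), by the interaction test of edgeR with an adjusted p under 0.1, beside 2.47% of all genes. Many of the named genes were chosen for a large difference at 1w, so that a smaller difference at 4w is in part fixed by that choice. The value given for each is the log2 fold change at 1w minus that at 4w. In 25 genes the excess in TFCs-CpCs was larger at 1w. They include Act57B (3.61) and Mp20 (3.01) of the muscle list, and the muscle genes Act87E (6.48) and Mef2 (3.60) outside it. The summed level of the list in TFCs-CpCs was 49801 and 48048 cRPKM at 1w and 1452 and 1525 at 4w. Signalling and guidance genes of this kind were boi (3.58), fz2 (2.34), grk (2.43), wgn (2.96), cact (2.17) and NetB (4.12). Among genes of membranes, junctions and matrix they were Ih (4.49), Ca-alpha1D (3.48), Prip (3.07), shakB (4.00), Pax (2.54), Ppn (3.60) and Tsp42Eg (3.39). Enzyme and RNA-binding protein genes were Cat (2.97), Prx2 (3.20), Tdc1 (6.46), Rbp9 (3.24) and bru3 (3.28), and genes without a name were CG17032 (6.37), CG8888 (8.06) and CG5612 (4.53). In these genes the part of the muscle transcripts, which moved with them, was not tested.

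In 13 genes the TFCs-CpCs value relative to ECs was lower at 1w than at 4w. They were Egfr (−2.75), kek1 (−2.28), shg (−2.08), Mmp1 (−3.44), Six4 (−2.26), Eip93F (−3.27), Notum (−3.05), Tollo (−3.80) and hh (−3.26) among genes with a name and counts in both groups. For Dro (−10.69), CG42821 (−10.62), CG42822 (−13.54) and CG15721 (−13.34) the young TFCs-CpCs were near 0, so that the size rests on few counts. The follicle cell list in TFCs-CpCs summed to 14886 and 4248 cRPKM at 1w and to 74644 and 35754 at 4w. Its part in the values of these 13 genes was not tested. Leaving out 1 library moved the number of genes called by this test from 283 to between 69 and 489.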

How the results depend on the processing

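Of the 127 named genes called at 1w, 119 kept their call under every alternative that could be fitted, 121 kept it without each library, and none changed sign; the exceptions were Dad, spi, sls, mt:CoII, Actbeta, BomS3, Hml and Vm26Aa. The value of 36 named genes moved by over 1.5 times when 1 library was left out. The count of 3172 genes at 1w became 1987 at an adjusted p under 0.05 and 4761 with all 12 libraries in 1 fit, and lay between 1944 and 3150 without 1 library. It was 3624 with DESeq2, 3311 with thinned counts, 3160 without a filter and 2346 at a mean of at least 5 cRPKM, and the share of calls higher in TFCs-CpCs ran from 28.8% (limma on log2(cRPKM + 0.1)) to 63.7% (without ECs replicate 2). The 606 genes at 4w became 1905 with DESeq2, 1287 without a filter, 224 at an adjusted p under 0.05, 2608 with all 12 libraries, and 960 and 1053 with limma at pseudocounts of 1 and 0.1, and ranged from 0 to 2285 without 1 library. The 283 genes of the interaction became 917 with DESeq2, 566 without a filter and 130 at an adjusted p under 0.05, and ranged from 69 to 489 without 1 library. Replicate numbers did not go with shared deviations between cell groups (correlation 0.006 at 1w over 10173 genes, −0.065 at 4w over 9908); with the replicate block the counts were 2658 at 1w (1485 and 1173 in the 2 directions), 690 at 4w and 292 for the interaction. The methods say that females of each replicate were divided between ages, and the correlation of 1w with 4w deviations was −0.040 in TFCs-CpCs and −0.033 in ECs. A block of replicate within cell group, added after seeing the data, called 279 genes by the interaction, 223 of them shared with the 283, and 37 of the 38 named genes kept their call. The cause of these changes was not tested. With 2 libraries a group, and ECs sequenced less deeply than TFCs-CpCs, differences in genes of few counts were the least certain.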

Other observations

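Immune genes were divided between young TFCs-CpCs and ECs. Of 25 Toll and Imd pathway genes tested 6 were higher in TFCs-CpCs and 6 in ECs (48.0% called, beside 31.2% of all genes). The NF-kappaB factor genes dl (50.4 and 50.5 cRPKM in TFCs-CpCs, 11.5 and 17.2 in ECs; log2 fold change 2.16 ± 0.35, adjusted p = 0.0091) and Dif (44.98 and 37.4 beside 10.5 and 14.1; 2.11 ± 0.35, adjusted p = 0.00984) were higher in TFCs-CpCs, together with their inhibitor gene cact (182 and 167 beside 74.2 and 88.1; 1.46 ± 0.26, adjusted p = 0.012). The Toll-family receptor gene Tollo was at 0.23 and 0.41 cRPKM in TFCs-CpCs and at 38.6 and 27.6 in ECs (−6.31 ± 0.44, adjusted p = 0.000583). Antimicrobial peptide genes were called only in the EC direction, 3 of the 7 tested (42.9%, beside 17.2% of all genes). Drosocin (Dro) was at 0.59 and 0.12 cRPKM beside 121 and 68.4 at 1w (−7.64 ± 1.13, adjusted p = 0.00618; −9.04 without TFCs-CpCs replicate 1 and −6.78 without replicate 2), and at 317 and 112 beside 11.1 and 43.1 at 4w. The TNF receptor gene wgn was at 773 and 799 cRPKM in TFCs-CpCs and at 40.9 and 63.2 in ECs (4.27 ± 0.35, adjusted p = 0.000868).

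Of 26 splicing-related RNA-binding protein genes tested, 4 were higher in TFCs-CpCs and 5 in ECs, which is 34.6%, near the 31.2% of all genes. The CELF-family gene bru3 was at 198 and 220.5 cRPKM in TFCs-CpCs and at 7.57 and 1.86 in ECs (5.88 ± 0.66, adjusted p = 0.00244), with 7.06 without ECs replicate 1 and 5.15 without replicate 2. The ELAV-family gene Rbp9 was at 137 and 132 beside 17.8 and 19.9 (3.20 ± 0.26, adjusted p = 0.000864), and the musashi-family gene Rbp6 was at 5.83 and 6.81 beside 57.4 and 47.4 (−2.68 ± 0.34, adjusted p = 0.00358). The piRNA factor gene fs(1)Yb, which acts in somatic ovarian cells, was at 0.89 and 1.65 beside 16.6 and 13.4 (−3.20 ± 0.53, adjusted p = 0.00923). Of 13 glycolysis genes 5 were higher in TFCs-CpCs and none in ECs, which is 38.5%, beside 31.2% of all genes. The rate-limiting enzyme gene Pfk was at 51.3 and 43.0 beside 11.03 and 9.21 (2.60 ± 0.30, adjusted p = 0.00262).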
